A study of Homo sapiens with 28 samples.

Results

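The 668 peaks described here were at least 2 times more accessible in Kuramochi cells adapted to 320 uM olaparib (T320) than in untreated cells or in cells adapted to any lower dose, out of 105048 consensus peaks (0.636%). They were picked from their own values. Each peak's count was divided by the total of its library and given as CPM (counts scaled to a library total of 1000000), the 2 libraries of a population were averaged, and a peak was kept where T320 reached 3 CPM and 2 times the value plus 0.2 CPM of each of the other 7 populations. The levels in those 8 populations are therefore a description of the choice and carry no test. Only the cells exposed for 9 days stand outside the rule.

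Kuramochi is an ovarian cancer cell line of epithelial type with a BRCA2 mutation, which all groups share. ATAC-seq counts transposase insertions into open chromatin. C never received drug. Each adapted population is named for the dose at which it was kept: T5 at 5 uM, T10 at 10 uM, T20 at 20 uM, T40 at 40 uM, T80 at 80 uM, T160 at 160 uM and T320 at 320 uM olaparib. P10 and P320 were drug-naive cells given 10 or 320 uM for 9 days, which the submitters call persister cells. Cell sorting by CD24 and CD44 preceded library preparation for C and for every adapted population, whereas for the 9-day cells the labels mention none. The gate for the adapted cells was low CD24 with high CD44. A comparison of P with C or T can therefore not be told apart from a difference in sorting. Each group had 2 libraries, and nothing says whether these were separate cultures, so the spread may be technical. Total counts ran from 9627970 to 29699950, and in every C and T population replicate 1 was the shallower library. Of 14 ovarian and epithelial marker genes, 8 had a peak over the promoter: PAX8, WT1, MECOM, EMX2, KRT8, MUC1, CLDN3 and CLDN4. MSLN, EPCAM, KRT18, KRT7 and CDH1 had none. SOX17, on chromosome 8, could not be scored, since the promoter annotation lacks that chromosome. No promoter peak was found for the 6 fibroblast or 3 hepatocyte markers, and 1 of 7 blood, 2 of 5 endothelial and 2 of 4 neural markers had one. Summed over the neural markers, CPM was 13.4 and 13.3 in C, 39.9 and 37.3 in T160 and 42.9 and 52.1 in T320, most of it from SYT1 (10.9 and 11.2 in C, 39.1 and 47.5 in T320). The sum over the ovarian and epithelial markers was 273.6 and 282.6 CPM in C, 220.8 and 216.5 in T160 and 178.3 and 181.3 in T320. It was 294.7 and 305.3 in P10 and 360.2 and 354.6 in P320. From C to T320, MUC1 went from 98.5 and 83.4 to 38.9 and 40.2, and WT1 from 41.9 and 57.6 to 19.2 and 17.3. MECOM, EMX2 and CLDN3 were also lower in T320. KRT8 rose, from 32.2 and 22.5 to 40.6 and 40.4. PAX8 (26.0 and 35.3 in C, 25.7 and 30.1 in T320) and CLDN4 (22.0 and 16.2, then 22.3 and 21.5) changed less. The blood sum, from CSF1R alone, was 6.26 and 2.66 CPM in C, 9.21 and 6.10 in T160 and 10.6 and 10.7 in T320. The part of other cell types in the results was not tested.

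Olaparib traps PARP enzymes on DNA and is most toxic to cells that lack homologous recombination, the repair route that needs BRCA2. Cells can adapt through many routes, including changes in which enhancers and promoters are open. Enhancers are mostly distant from gene starts, and AP-1 factors, dimers of JUN and FOS proteins, are known for binding newly opened enhancers in stressed or migratory cells. An ATAC peak marks open DNA and does not say which gene it serves, so each peak below is named after its nearest protein-coding gene only as a label. In bulk cells, more cells with an open site and a more open site per cell cannot be told apart.

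Few of the 668 peaks lay at promoters, and the sequences of those that did are the ones the gene annotation allows to be read. The promoter table covers RefSeq GRCh38.p14, and 630 of the 668 peaks lie on its chromosomes. Of these, 15 (2.38%) overlapped a window from 250 bases before to 50 after a gene start, against 13.6% of all peaks. Only 4 of the 15 belonged to protein-coding genes: ZNF492, a zinc-finger gene; WFDC8, of the protease-inhibitor domain family; VGLL4, a cofactor of TEAD factors; and SORBS2, a cytoskeletal adaptor. The others were promoters of long non-coding RNAs. The next lines show 250 bases before the start of 6 of these genes, 5′ to 3′ on the gene's strand. The first 5 are those in which the AP-1 letters lie inside the peak itself, with these letters in capitals, and ZNF492 is the protein-coding promoter with the largest ratio and holds none.
LINC01615, chr6:169162990-169163239, strand minus: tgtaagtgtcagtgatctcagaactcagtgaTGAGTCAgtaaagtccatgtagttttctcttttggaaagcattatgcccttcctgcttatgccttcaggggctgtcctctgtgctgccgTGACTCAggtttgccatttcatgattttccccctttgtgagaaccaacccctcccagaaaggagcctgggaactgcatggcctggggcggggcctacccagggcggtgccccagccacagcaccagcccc
LOC388282, chr16:57810269-57810518, strand +: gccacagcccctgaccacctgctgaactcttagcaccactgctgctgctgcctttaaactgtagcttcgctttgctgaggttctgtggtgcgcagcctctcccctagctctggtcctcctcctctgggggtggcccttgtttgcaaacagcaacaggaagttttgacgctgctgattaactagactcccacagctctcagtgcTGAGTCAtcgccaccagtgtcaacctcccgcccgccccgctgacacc
SORBS2, chr4:185933129-185933378, strand minus: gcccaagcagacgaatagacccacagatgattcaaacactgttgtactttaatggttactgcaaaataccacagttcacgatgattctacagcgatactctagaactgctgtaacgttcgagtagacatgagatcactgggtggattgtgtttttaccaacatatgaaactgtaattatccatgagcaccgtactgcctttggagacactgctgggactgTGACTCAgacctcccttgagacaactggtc
LOC105378494, chr10:114320756-114321005, strand +: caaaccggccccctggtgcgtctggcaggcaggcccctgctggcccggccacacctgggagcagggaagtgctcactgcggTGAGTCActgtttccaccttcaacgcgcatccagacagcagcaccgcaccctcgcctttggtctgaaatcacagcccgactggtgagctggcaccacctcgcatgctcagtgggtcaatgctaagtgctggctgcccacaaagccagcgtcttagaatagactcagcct
LINC03125, chr20:23147853-23148102, strand +: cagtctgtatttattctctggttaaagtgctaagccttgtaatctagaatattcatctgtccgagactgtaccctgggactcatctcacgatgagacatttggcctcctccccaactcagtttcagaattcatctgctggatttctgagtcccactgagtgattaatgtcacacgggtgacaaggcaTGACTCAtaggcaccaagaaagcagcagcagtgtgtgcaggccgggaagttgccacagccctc
ZNF492, chr19:22634074-22634323, strand +: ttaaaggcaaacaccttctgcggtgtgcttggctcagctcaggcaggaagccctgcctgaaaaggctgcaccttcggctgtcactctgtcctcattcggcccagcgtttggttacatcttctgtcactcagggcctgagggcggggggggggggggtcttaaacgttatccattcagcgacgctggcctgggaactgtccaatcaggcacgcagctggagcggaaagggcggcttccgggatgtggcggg

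The letters TGAGTCA, read on both strands and so also TGACTCA, stood in 6 of the 15 promoter windows before the start. LINC01615 had them at 219 and 130 bases before the start, LOC388282 at 47, SORBS2 at 30, LOC105378494 at 169 and LINC03125 at 63. In PRADX the match lay 58 bases before the start, outside the peak. The same letters were in 4.20% of 35116 promoters, 3.66% of the 21782 promoters overlapped by any peak, and 5.82% of 4675 overlapped lncRNA promoters. In 1459 promoters overlapped by other peaks that were higher in T320 than in C, the share was 11.1%. The 6 of 15 is a description of a small set. The other letters searched on both strands were those of TEAD (GGAATG), NRF2 (TGACNNNGC), ATF4 (TGATGCAA), GATA factors (AGATAA), RUNX (TGTGGT), an E-box (CACCTG), KLF (GGGTGTGG) and the interferon response element ISRE, some of which can overlap the AP-1 letters. Their counts in the 15 were 0, 3, 1, 1, 3, 5, 1 and 0, and their shares of the overlapped promoters were 10.5%, 11.8%, 0.519%, 5.59%, 8.64%, 16.4%, 2.91% and 2.37%. A match of letters is no evidence of binding. The 15 windows held a median of 6 CpG, against 19 in promoters overlapped by any peak, 15 in overlapped lncRNA promoters and 11 in all promoters.

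At the printed promoters the peaks were lower in every lower-dose library than in T320, and P10 differed from site to site. At LINC01615 the peak measured 8.96 and 11.8 CPM in T320 and 0.81 to 5.19 CPM in the 14 libraries of the other populations of the rule, with a median of 2.52. P10 had 4.46 and 5.97 CPM there and P320 2.42 and 2.51. At LOC388282 it measured 12.2 and 11.3 CPM, against 1.52 to 5.19, with 5.54 and 7.67 in P10, above all 14, and 2.46 and 3.19 in P320. At SORBS2 it measured 10.6 and 11.4 CPM, against 0.675 to 6.54, with 2.03 and 1.83 in P10 and 0.842 and 0.716 in P320. The LINC03125 peak had 4.06 and 5.26 CPM in P10 and 1.62 and 2.08 in P320, and 11.1 and 11.9 in T320. No C or lower-dose library reached either T320 library at LINC01615, LOC388282 or SORBS2. The ZNF492 promoter measured 8.31 and 7.63 CPM in T320 and 0.54 to 2.26 in the 14 libraries. The VGLL4 promoter was the most open of the 4 protein-coding ones, at 39.7 and 40.3 CPM, and also the most graded: C had 4.85 and 3.78, T10 13.6 and 11.7, T80 18.6 and 19.2, and T160 20.8 and 18.5 CPM.

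Across the whole set, levels were somewhat higher at the middle doses than in C. The largest step was the last, a rise that the rule itself asks for. The median of the 668 peaks was 1.86 CPM in C and 1.76 at 5 uM, then 2.05 at 10 uM, 2.21 at 20 uM, 2.82 at 40 uM, 3.13 at 80 uM, 3.20 at 160 uM and 8.88 at 320 uM. The median over all peaks stayed between 5.26 and 5.84 CPM in these populations. The next highest population was T160 for 266 peaks (39.8%), T80 for 185 and T40 for 83, with C for 48. T160 already exceeded C by over 1.5 times at 401 of the 668 (60.0%). At 15 the mean was higher at every step from C to T320. Both T320 libraries lay above all 14 others in 667 of the 668, where 8.35% of all peaks did so, but the rule fixes most of that.

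**Figure D1:**
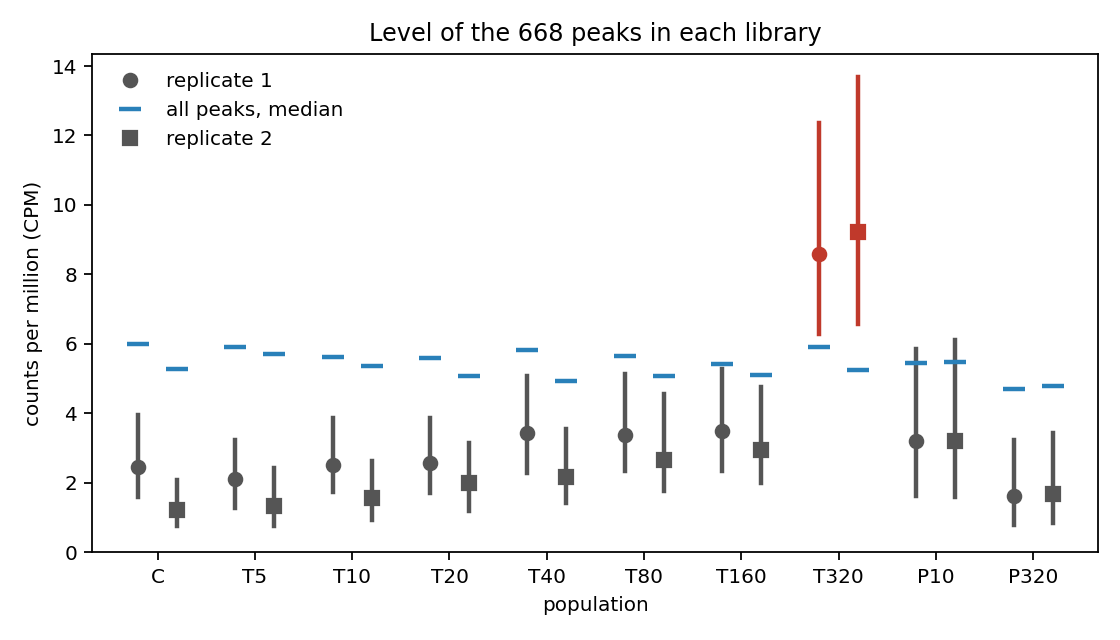
Median (points) and the range between the quartiles (vertical lines) of CPM over the 668 peaks in each of the 20 libraries, with circles for replicate 1, squares for replicate 2 and blue dashes for the median over all peaks. The T320 medians, 8.59 and 9.24 CPM, stand above every other library, while P320 (1.62 and 1.68) is close to C.

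Most of the ratios were modest. The median ratio of T320 to the next highest population plus 0.2 CPM was 2.27; 484 peaks were under 2.5, 64 reached 3, 13 reached 4 and 2 reached 5. The edge of the set cuts through a continuum: 275 members had ratios up to 2.2, and 592 other peaks with 3 CPM or more in T320 had ratios from 1.8 to 2. Just inside lay peaks in SLC1A3 (a glutamate transporter; ratio 2.001), TCF7L2 (a Wnt pathway factor; 2.002) and C11orf65 (2.003). Just outside lay peaks in ITCH (a ubiquitin ligase; 1.9998), KCNQ1 (a potassium channel; 1.9993) and FMN1 (an actin-nucleating formin; 1.998). With each other population in the place of T320, the same rule found 3025 peaks for C, 138 for T5, 21 for T10, 4 for T20, 0 for T40, 0 for T80 and 12 for T160. Peaks lower only in T320 by the same margin numbered 132.

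The 668 were chosen on the means of both replicates, so the replicates give no independent check of them. As a description, the rule was also applied to each replicate alone. The 2 libraries of a population may be technical repeats, so agreement between them is no support for the set. Chosen on replicate 1 alone, 329 peaks passed, and in replicate 2 T320 was the highest of the 8 populations at 326 of them (99.1%), against 19.8% of all peaks. Chosen on replicate 2 alone, 1288 passed, and T320 was highest in replicate 1 at 1227 (95.3%), against 17.8% of all peaks. Both choices kept 233 peaks. The replicate 1 set had a median ratio of 2.23 in replicate 1 and 2.35 in replicate 2, whereas the replicate 2 set had 2.29 in replicate 2 and 1.54 in replicate 1. In C to T160 the members' medians were lower in replicate 2 than in replicate 1 throughout (1.22 against 2.47 CPM in C, 2.66 against 3.39 in T80), and in T320 they were higher (9.24 against 8.59). The part of depth or background in this was not tested.

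The peak with the largest ratio was inside SUMF1, the enzyme that activates sulfatases (chr3:4416846-4418111), with 22.0 and 22.1 CPM in T320, and 1.21 to 4.69 (median 2.58) in the 14 libraries of lower dose. It was 2.12 and 1.65 in P10 and 2.15 and 1.61 in P320, so both 9-day groups lay in the range of the lower doses. A peak 120156 bp from ZBBX (chr3:167057061-167058246) had 15.5 and 27.0 CPM in T320, the widest replicate gap among the peaks plotted here, and 0.56 to 5.41 in the 14.

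RARB, a retinoic acid receptor, held another of the largest ratios (chr3:25581924-25582743), with 17.5 and 16.8 CPM in T320 and 0.226 to 4.14 in the lower doses. The next lay 23312 bp from XCR1, a chemokine receptor of dendritic cells (chr3:46109156-46109742), with 11.9 and 13.6 CPM against 0.314 to 2.64. B3GALT1, a galactosyltransferase, held one more (chr2:167406316-167407049), with 9.97 and 11.3 CPM against 0.226 to 3.74. In these 5, both T320 libraries were above every lower-dose library. The next were at RFX3, a ciliary transcription factor; PCDH7, a protocadherin (467092 bp away); ZNF492; EPHA6, an ephrin receptor (644552 bp away); LOC124900173 (1542399 bp away); and WRN, a DNA helicase, with ratios from 4.43 down to 4.32. Among the peaks named here, P10 stood above every lower-dose library at XCR1, RFX3 (12.8 and 12.7 CPM), PCDH7 (11.5 and 11.1) and WRN (6.90 and 6.60). P320 did so at RFX3, PCDH7 and ZNF492. RFX3 and PCDH7 were not closed at lower doses: RFX3 had 6.08 CPM in C replicate 1 and PCDH7 6.25 in T80 replicate 1.

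**Figure D2:**
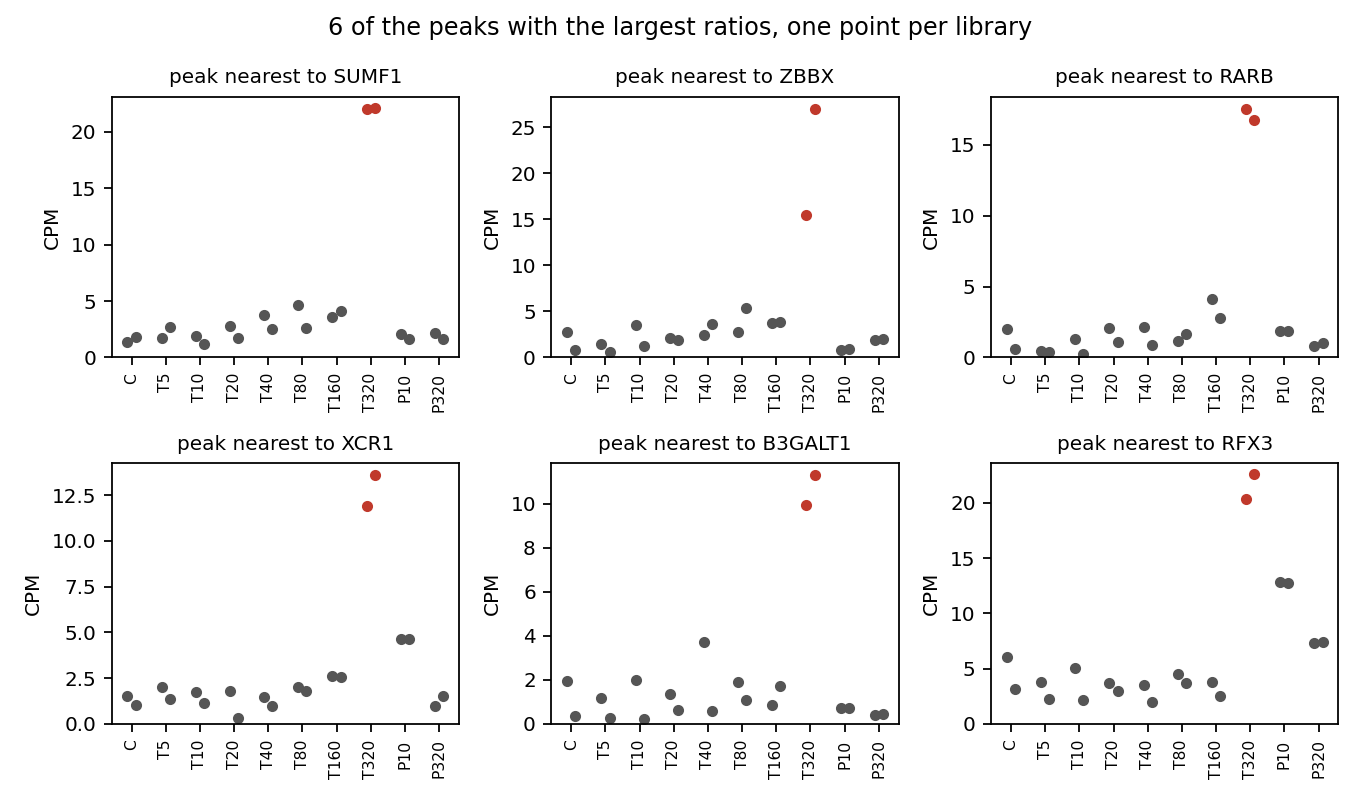
CPM in each library (one point each, T320 in red) at 6 of the peaks with the largest ratios, with the populations on the horizontal axis. Both T320 points stand above all other points in each panel, and both P10 points lie above all lower-dose points at XCR1 and RFX3 only.

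The most open members were already open elsewhere. The peak inside CCN4, a secreted matricellular protein (chr8:133216264-133218907), had 63.7 and 99.7 CPM in T320 and already 41.3 and 33.5 in T80, with 24.1 and 9.86 in C. A peak 101984 bp from ST3GAL1, a sialyltransferase (chr8:133673871-133675459), had 56.5 and 62.0 CPM, and 22.7 and 15.2 in C. SNAPC3, a subunit of the small nuclear RNA activating complex (20657 bp away, chr9:15400212-15402219), had 42.7 and 67.7 CPM in T320 and 9.43 and 10.1 in C. ZNF469, a zinc-finger gene, had 38.9 and 46.7 CPM and the peak 40673 bp from TOMM20, a mitochondrial import receptor, 36.8 and 43.3. All 5 had ratios between 2.00 and 2.61.

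The set was distal, and other peaks higher in T320 than in C leaned the same way. Gene-end peaks, no more than 1 kb from the start or the far end of a protein-coding gene, made up 13 of the 668 (1.95%), against 14.6% of all peaks. Of 15060 other peaks higher in T320 than in C, 14135 were not at gene ends. This held for 655 of the 668 and for 89726 of all 105048 peaks. Inside protein-coding genes lay 293 (43.9%), against 57.2%, and 273 (40.9%) lay in neither a protein-coding nor a lncRNA gene, against 30.9%. Exon and intron positions were not used here. Outside chromosome 8, where gene starts were not at hand, the median distance to the nearest gene start was 36999.5 bp, against 24476.5 bp. The median width over all chromosomes was 906 bp, against 1119 bp. The 10 gene-end peaks with the largest ratios were at ZNF492, LMCD1 (a LIM domain protein), WFDC8, SCIN (an actin-severing protein), LARS2 (the mitochondrial leucyl-tRNA synthetase), CYB561 (a transmembrane cytochrome), SMIM21, LOC124901868, LEPROTL1 and PPM1M (a protein phosphatase). Their T320 means ran from 4.69 to 17.1 CPM.

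Chromosome 3 carried 103 of the 668 (15.4%), and 6.96% of all peaks. The excess was in the first 70 Mb, a limit set after the positions were seen, with 89 members among 2606 peaks (3.42%). The rest of chromosome 3 had 14 members among 4703 peaks (0.298%), and the other chromosomes 565 among 97739 (0.578%). Other peaks in the first 70 Mb were also higher in T320 than in T160, with a median log2 ratio of 0.34 against 0.06 on the other chromosomes, and a median of 0.71 for T320 against C. The members there had a median of 1.37. When the median shift of each 5 Mb window was removed before the rule was applied, 529 peaks passed, 390 of them members, and the share in the first 70 Mb fell from 13.3% to 5.48%. Among the 233 peaks that passed on each replicate it was 18.5%. Chromosomes 21, 18 and 6 followed in share, and the lowest shares were those of chromosomes 11 (10 members, 0.177%) and 14 (5 members, 0.151%).

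**Figure D3:**
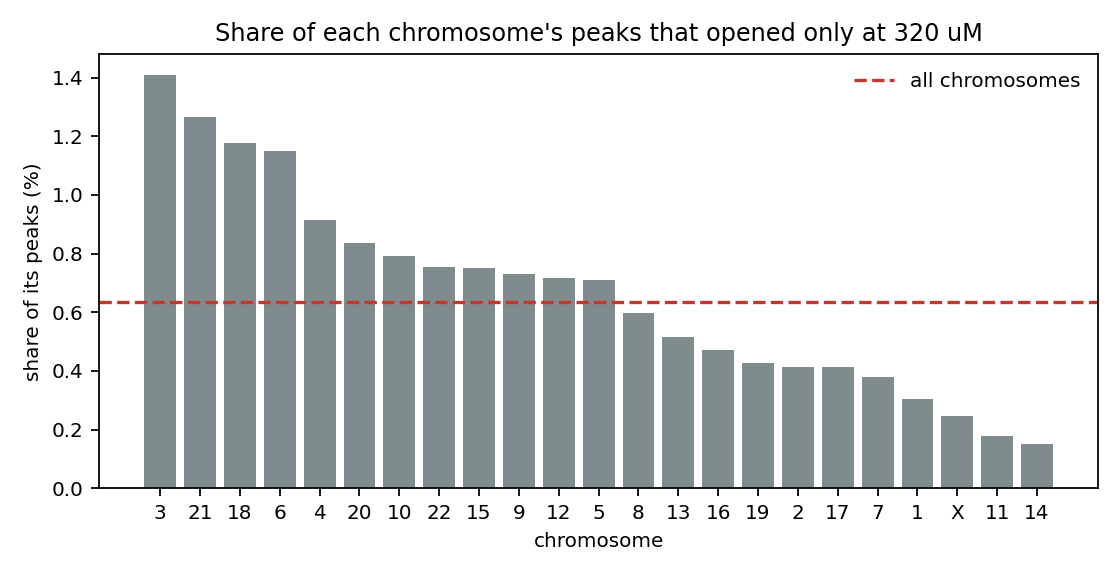
Share of each chromosome's peaks that belong to the 668, in percent, with chromosomes ordered by that share and the dashed line at the share over all of them. Chromosome 3 leads at 1.41%, above 21 at 1.27%.

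Within the first 70 Mb a few genes were nearest to several of the 89 peaks, while most genes had 1. The window from 46 to 47 Mb held 7 among 49 peaks, near XCR1, CCR1 and CCR2, which are chemokine receptors, and LRRC2, a leucine-rich repeat gene. Its most open member lay 24782 bp from XCR1 (chr3:46110626-46111584), with 26.3 and 45.5 CPM in T320 and 4.56 to 10.0 in the 14 libraries of lower dose. The window from 54 to 55 Mb held 5 among 38 peaks, all nearest to CACNA2D3, an auxiliary subunit of calcium channels, which had 7 in all. The highest of these (chr3:54557386-54559193) had 21.2 and 29.4 CPM, against 1.74 to 8.41. RARB and ZNF385D, a zinc-finger gene, had 4 each, and THRB, a thyroid hormone receptor, had 3. Outside chromosome 3, the windows with 4 were on chromosome 10 (DLG5 and KCNMA1) and chromosome 21 (ADARB1 and PCBP3). The neighbour of a member, on either side, was another member in 55 cases (8.23%). Members were 0.636% of all peaks and 3.42% of those in the first 70 Mb of chromosome 3. How much this concentration adds to the 55 was not tested.

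Peaks close to the 668 were also higher in T320 than in T160 by their median, only less. Among other peaks within 10 kb of one, the median log2 ratio of T320 to T160 was 0.30; it was 0.27 from 10 to 50 kb, 0.18 from 50 to 200 kb, 0.12 from 200 kb to 1 Mb and 0.01 beyond. Without the first 70 Mb of chromosome 3 the nearest class had 0.27. Wide regions elsewhere were also higher in T320, with medians over all their peaks of 0.62 at 0 to 10 Mb of chromosome 5 and 0.51 at 20 to 30 Mb of chromosome 20. The rule favours such regions, so these values cannot separate a local change from a regional one. The members themselves had 1.35, and all other peaks 0.06.

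**Figure D4:**
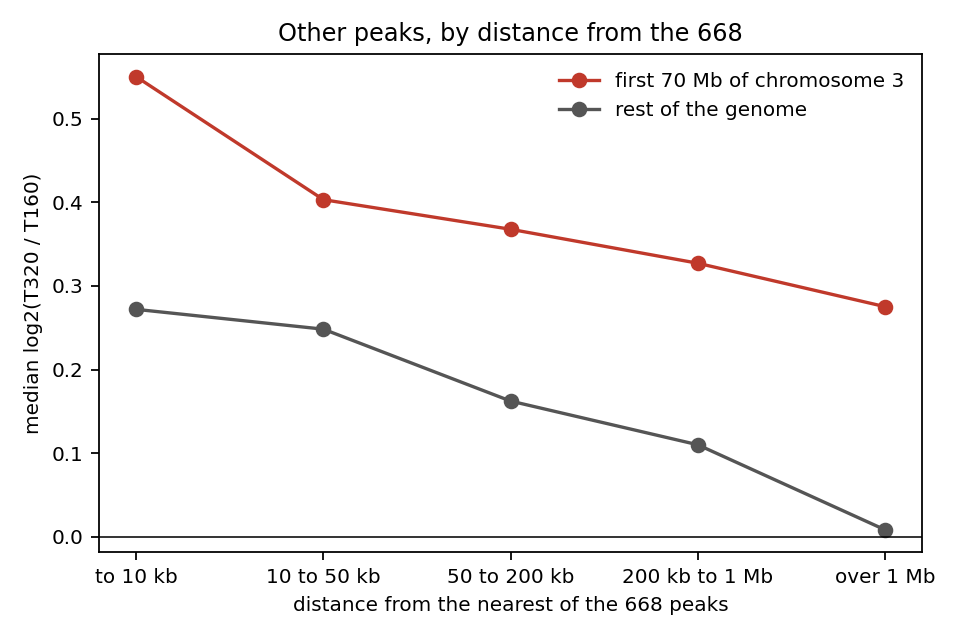
Median log2 ratio of T320 to T160 over peaks outside the set, by distance from the nearest of the 668, for the first 70 Mb of chromosome 3 (red) and the rest of the genome (grey). It falls with distance in both, from 0.55 to 0.28 in red and from 0.27 to 0.01 in grey.

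The 9-day populations give the comparison that the rule did not use. Fitted over all 105048 peaks with edgeR's quasi-likelihood test (adjusted p under 0.05 and a change of at least 1 on the log2 scale), 207 of the 668 (31.0%) were lower in P320 than in P10, against 9.68% of all peaks. Only 17 (2.54%) were higher, against 4.10%. The median log2 change was -0.84 for the members and 0.08 for all peaks. Both P10 libraries lay above both P320 libraries at 502 members, which 39.4% of all peaks did, and the reverse held at 61, against 36.7% of all peaks. In CPM, the members' median was 3.20 and 3.21 in the P10 libraries and 1.62 and 1.68 in P320. P10 reached at least 0.5 of the T320 level at 224 members and P320 at 55, and they reached all of it at 34 and 5. The median share of the T320 level was 0.353 in P10 and 0.173 in P320, against 0.987 and 0.928 over all peaks. The rule chose members for a high T320, so low shares are built in. Of the 9-day groups, P320, given the drug dose of T320, had the lower median at these peaks. The part of dose in this was not tested.

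The call count leans on all 4 libraries: it was 122 without P10 replicate 1, 110 without P10 replicate 2, 75 without P320 replicate 1 and 91 without P320 replicate 2, where 3.75% to 5.57% of all peaks were then called lower. The count called higher was 5 to 11 in those fits. Level mattered too: of members whose higher 9-day mean was under 2 CPM, 16.2% were called lower, against 4.18% of all such peaks. From 2 to 5 CPM the shares were 31.8% and 10.5%, and from 5 CPM they were 43.1% and 10.1%. Other peaks higher in T320 than in C, not in the set, were called lower in P320 in 22.5% (median log2 change -0.42), and peaks not higher in T320 in 7.35%. The difference between these sets was not tested.

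**Figure D5:**
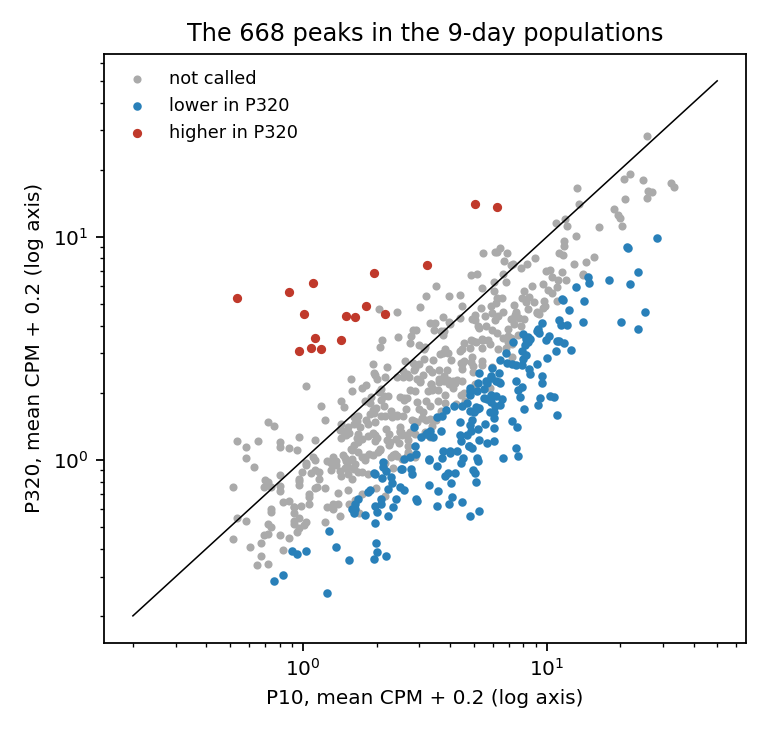
Mean CPM plus 0.2 of each of the 668 peaks in P10 (horizontal) and P320 (vertical), both on log axes, with the line of equality. The 207 peaks called lower in P320 are blue, the 17 called higher are red, and most grey points also lie under the line.

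The 4 members with the smallest p among those lower in P320 were near VEGFA, GRHL3, MB and CACNA2D3. A peak 130148 bp from VEGFA, the vascular growth factor (chr6:43916635-43918327), had 23.8 and 23.0 CPM in P10 and 4.24 and 3.08 in P320, with 23.4 and 33.1 in T320 and 8.46 and 4.37 in C. It fell by 2.58 on the log2 scale in P320 (standard error 0.27, adjusted p 2.71e-05 by edgeR). A peak 52073 bp from GRHL3, an epithelial transcription factor (chr1:24266273-24267284), had 18.2 and 21.6 CPM in P10 and 3.91 and 4.01 in P320, a log2 change of -2.24 (standard error 0.27, adjusted p 5.75e-05 by edgeR). At the VEGFA peak P10 was near the T320 level, and at the GRHL3 peak both P10 libraries were above the T320 mean of 16.0 CPM. At both peaks P320 was near or below the level of C.

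A peak over the lncRNA promoter LOC107985590, 16788 bp from MB, the myoglobin gene (chr22:35588932-35589976), had 23.1 and 23.8 CPM in P10, 6.77 and 6.69 in P320 and 23.0 and 25.3 in T320. A peak 85663 bp from CACNA2D3 (chr3:55160220-55161069) had 3.52 and 4.23 CPM in P10 and 0.572 and 0.394 in P320, a log2 change of -2.89. In contrast to the other 3, its T320 level of 16.7 and 21.3 CPM was well above P10.

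The 17 peaks that rose in P320 relative to P10 were led by peaks near FGF10, DHX35, ADAMTSL3 and TPRG1. A peak 77866 bp from FGF10, a growth factor of the lung and limb mesenchyme (chr5:44221186-44222381), had 0.676 and 0.669 CPM in P10, 5.66 and 5.26 in P320 and 8.31 and 8.13 in T320, a log2 change of 3.10 (standard error 0.39, adjusted p 8.44e-05 by edgeR). DHX35, an RNA helicase (738854 bp away), had 0.676 and 0.936 CPM in P10 and 3.87 and 4.73 in P320. ADAMTSL3, a secreted matrix protein, had 0.811 and 0.981 CPM in P10 and 5.69 and 6.26 in P320. TPRG1 (8937 bp away) had 1.94 and 1.56 CPM in P10 and 7.24 and 6.19 in P320. The ZNF492 promoter was among the 17, with 1.17 and 0.669 CPM in P10 and 3.74 and 2.94 in P320, a log2 change of 1.95 (standard error 0.50, adjusted p 0.0117 by edgeR). That call was lost without P10 replicate 2 or without P320 replicate 1 (adjusted p 0.137 and 0.0956).

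By the share of the T320 level kept in P320, members ranged widely. The highest were near FSHR, the follicle-stimulating hormone receptor, KRT78, a keratin, GFOD1, PPM1M and WNT9A, a Wnt ligand. The FSHR peak (69747 bp away) had 4.85 and 5.37 CPM in P320 and 4.06 and 4.03 in T320, but 0.225 and 0.446 in P10. WNT9A went the other way between the 9-day groups, with 31.4 and 35.0 CPM in P10, 15.6 and 17.3 in P320 and 14.6 and 18.0 in T320, the only member with P10 at 2 times T320 or more. The lowest were near NDP, the Frizzled ligand norrin, SSTR4, a somatostatin receptor, DKK1, a Wnt antagonist, SEM1, a proteasome subunit that also binds BRCA2, and CUL2, a ubiquitin ligase scaffold. NDP had 0.0337 and 0.0716 CPM in P320 and 3.79 and 4.53 in T320. SEM1 had 0.135 and 0.143 CPM in P320, 0.361 and 0.535 in P10 and 7.11 and 7.54 in T320, so both 9-day groups were below all 14 lower-dose libraries (0.81 to 3.71).

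Against C, P10 was higher at 229 members (34.3%; 9.32% of all peaks) and P320 at 52 (7.78%; 3.94%), and P320 was lower at 35 (5.24%; 7.91%). These share the C libraries, which the rule used, so they are descriptions. Without C replicate 2 the counts were 87 and 15. P320 against C also fell without P320 replicate 1 or replicate 2, to 24 and 21. T320 was called higher than C at 654 members (15.0% of all peaks) and than T160 at 367 (1.52%). The rule chose members for a high T320 against both, so these counts follow largely from the choice and support nothing. The T160 count dropped to 115 without T160 replicate 1, 17 without T160 replicate 2 and 20 without T320 replicate 2, and was 321 without T320 replicate 1. It was 616 with the replicate number as a block and 240 after the window shift was removed.

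Of 12 gene lists, the mesenchymal and matrix list had the most members: 8 peaks at 5 of its 25 genes, which is 2.83% of the 283 peaks nearest to those genes, against 0.636% over all peaks. They were TGFBI, an extracellular matrix protein (3 peaks), SNAI1, a repressor of epithelial genes (2), and ZEB2 and TWIST1, of the same kind, and COL5A1, a fibrillar collagen. The 3 TGFBI and 2 SNAI1 peaks lay in 1 Mb windows that were higher in T320 by their median. Over all peaks of these windows the median log2 ratio of T320 to T160 was 0.67 and 0.29, against 0.06 genome-wide. The part of the region in the list's share was not tested. ZEB2's peak (18421 bp away, chr2:144364687-144365660) had 9.05 and 7.67 CPM in T320 and 1.40 to 4.25 in the 14 lower-dose libraries. It measured 7.39 and 7.31 in P10 and 1.35 and 1.07 in P320, a log2 change of -2.50 (adjusted p 0.000277 by edgeR). The most open TGFBI peak (chr5:136016711-136017604) had 17.6 and 21.9 CPM in T320, 6.85 and 8.56 in P10 and 1.72 and 2.11 in P320, a log2 change of -1.91. One SNAI1 peak (chr20:50033698-50034231) had 10.5 and 10.2 CPM in T320, 5.77 and 8.25 in P10 and 2.39 and 2.58 in P320, a log2 change of -1.40. Between P10 and P320, 4 of these 8 peaks were called lower and 0 higher, where 31.0% of the 668 and 9.68% of all peaks were called lower. The fourth was another TGFBI peak, with a log2 change of -1.68. The third TGFBI peak (-0.96), the other SNAI1 peak (-0.32), COL5A1 (-0.55) and TWIST1 (-0.52) were not called.

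The ABC transporter list had 2 members, in ABCG1 and 142869 bp from ABCA1, both cholesterol exporters, which is 2.25% of its 89 peaks. ABCG1 had 13.8 and 13.5 CPM in T320 and 3.25 and 2.63 in P10, 3.03 and 2.86 in P320. ABCA1 had 6.37 and 5.68 CPM in T320, 3.79 and 3.21 in P10 and 0.707 and 0.931 in P320. The receptor list had 2 of 265 peaks (0.755%): EGFR, with 9.97 and 8.81 CPM in T320, 8.38 and 6.77 in P10 and 1.52 and 1.90 in P320, and IGF1R, with 10.9 and 15.4, 4.82 and 4.90, and 3.80 and 4.30. The NRF2 list had 1 of 45 peaks (2.22%), at TXNRD1, thioredoxin reductase, with 20.3 and 34.8 CPM in T320. No member had as nearest gene one from the lists for AP-1 genes (130 peaks), epithelial genes (126), ovarian lineage (164), integrated stress (71), cytokines (68), DNA repair (38), interferon and antigen presentation (68) or metabolism (79). These lists held few peaks, so their counts of 0 say little. Genes with ZNF symbols had 10 members among 1615 peaks (0.619%), close to the share over all peaks.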

How the data were processed

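Kuramochi ATAC-seq libraries (20, 2 per group) were analysed, and 8 further labelled samples have no column in the table and were not analysed here. The authors deposited read counts per consensus peak, raw and unnormalized, on GRCh38, per the file headers and labels. The submitters' processing notes name MACS2, Bowtie2, HOMER, DESeq2, deepTools, Trim Galore, SAMtools and Picard, with no role given. Whether peak starts count from 0 is not stated, so coordinates stand as deposited.

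The members, gene lists and named-peak rule were chosen with earlier results of these data known. Peaks named are the 12 largest ratios, 10 gene-end peaks, 5 highest levels, the 4 smallest p each way between P320 and P10, 5 highest and 5 lowest shares of T320 in P320, 3 either side of the limit, and peaks nearest list genes; 1 of them is not reported here. Others, such as single peaks of the chromosome 3 windows, were picked after their values were seen. Counts were fitted with edgeR 4.0.16 (R 4.3.3, quasi-likelihood, robust, TMM) over all 10 groups and checked on simulated data. The simulated libraries carried no replicate effect, so that check does not cover the pairing of the C and T libraries given below. The default filter removed no peak. P-values are Benjamini-Hochberg adjusted over 105048 peaks. Scripts used Python 3.11.15 and pandas 2.3.3. Gene positions and promoters are RefSeq GRCh38.p14, with no promoters on chromosome 8.

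Replicate numbers pair the C and T libraries (deviations correlate from 0.18 to 0.59 in every pair), but P10 and P320 share only a number (0.0002). Alternatives were other scalings, a 5 Mb window offset, DESeq2 1.42.0, filters, a replicate block and leaving out each library.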

Additional observations from a re-analysis of the deposited data

How the results depend on the processing

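The number of peaks that meet the rule depends on its limits. It was 230 with 1 CPM added in place of 0.2, 3298 at 1.5 times, 64 at 3 times, 329 on the replicate 1 columns alone and 1288 on replicate 2 alone. Leaving out each library in turn gave 529 to 1001. TMM scaling (634), the window offset (529), no value added (910) and limits of 2 or 5 CPM (670 and 613) stayed within 1.5 times. The share in the first 70 Mb of chromosome 3 was 18.5% on both replicates and 5.48% after the window offset, the latter chosen after seeing the data.

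Leaving out one library gave 5 to 11 members higher and 75 to 122 lower in P320 than in P10, 87 to 279 higher in P10 than C, 15 to 76 in P320 than C, 530 to 643 in T320 than C and 17 to 321 in T320 than T160. A group left with 1 library was assumed to vary like the others. With the replicate block, P320 against P10 gave 249 lower and 19 higher, P10 against C 265, P320 against C 67, T320 against C 668 and T320 against T160 616. Replicate numbers pair only the C and T libraries, so the block does not suit the counts that involve P10 or P320. The window offset gave 240 for T320 against T160. The causes were not tested. For single named peaks between P320 and P10, 30 alternative fits lost a call, 10 gained one and 575 changed none. The 575 include peaks called in neither fit, so they do not measure how stable the calls were. Motif letters over whole peaks were not run, since no genome of the build was at hand. The 2 libraries per group and about 93 counts at a median member in T320 replicate 1 limit all single-peak calls.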
